A study of Homo sapiens with 4 samples.

Results

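*MYC* and 9 genes that govern passage through the G1 phase of the cell cycle were followed through 4 arrays of Nalm-6 cells, a human leukemia line of the pre-B stage. The 10 genes were taken as a list of names (*MYC*, the D-type cyclins *CCND1*, *CCND2* and *CCND3*, their kinases *CDK4* and *CDK6*, the kinase inhibitors *CDKN1B*, *CDKN2A* and *CDKN2C*, and the pocket protein gene *RB1*), and every probe whose accession is a transcript of one of them was kept. This gave 20 probes for 10 of the 17721 genes that could be named on the array, with more than 1 probe for 8 genes and 1 probe for *CDK4* and *CDKN2C*.

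The study asked what the INO80 chromatin remodeling complex, with its actin-related subunits Arp5 and Arp8, does to gene expression in cells that were not stressed. Wild-type (WT) cells were set beside Arp5 KO cells, made by disrupting both alleles of the Arp5 gene through homologous recombination, and beside Arp8 KO cells, made by a like disruption of the Arp8 gene. A further array is labelled Arp8 overexpression, and the series' design ties this overexpression to a Tet-Off system placed in the Arp8-knockout cells, without saying whether tetracycline was present. All lines descend from Nalm-6, grew in the same medium with serum, and each genotype was hybridized once, with Cy3 as the only dye, so a genotype cannot be told apart from its clone, culture or array. The Arp5 KO line is described as growing a little slower than WT, and conditional loss of Arp8 as lethal to the cells, and the point at which RNA was taken after its loss was not given in the sources used here.

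In G1, growth signals raise D-type cyclins, which bind CDK4 or CDK6, and the active kinases phosphorylate the RB1 protein so that E2F factors can turn on the genes of DNA synthesis. The INK4 proteins, among them the products of *CDKN2A* and *CDKN2C*, block CDK4 and CDK6, and p27, made from *CDKN1B*, blocks the later CDK2 complexes. *MYC* drives growth and biosynthesis, and in pre-B cells it stands with cyclin D3 among the genes on which proliferation depends.

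Each value below is the scanner's processed signal in intensity units, and a log2 ratio is the difference of log2 signals after the 75th percentile of each array was subtracted. A probe was counted beyond 2-fold when its ratio passed 1 on the log2 scale in either direction and the brighter array was well above background in the software's own test. Of the 20 probes, 15 were well above background on all 4 arrays and 3 on none. There is 1 array per genotype, so no p-value is given. The software's error of a log2 ratio was 0.20 for bright probes, and the SD of a log2 ratio among repeated spots had a median of 0.03 for 145 probes over 500 units, 0.06 for 38 probes of 50 to 500 units and 0.22 for 19 dimmer probes well above background, in Arp5 KO over WT. Neither error includes differences between cultures.

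The genes that were targeted come first. *ACTR5*, which encodes Arp5, had a signal of 1909 units in WT, 65.3 in Arp5 KO, 1849 in Arp8 KO and 2088 on the array labelled as Arp8 overexpression, so it was low in Arp5 KO cells. For *ACTR8*, which encodes Arp8, the probe A_23_P80694 gave 1092, 993, 785 and 679 units in the same order, and the probe A_24_P131697 gave 2149, 2233, 1654 and 1857. Both probes were thus lowest on the 2 arrays of Arp8-manipulated cells, and the label overexpression is not borne out by these probes. In Arp8 KO cells the log2 ratios to WT were -0.49 and -0.40, within 2-fold. The probe A_23_P80694 was higher there than on the array labelled as Arp8 overexpression. These probes thus do not bear out the label Arp8 KO by a loss of signal either. Where the probes lie relative to the disrupted part of the gene, and whether they read a transcript of the Tet-Off construct, was not tested. *INO80*, the gene of the ATPase, was at 6900, 12004, 14102 and 8070 units by the probe A_23_P106522 and at 877, 1658, 1876 and 1124 by A_24_P39454, higher in both KO lines than in WT cells. The pre-B identity of the cells was checked on 10 marker genes, all well above background on all 4 arrays. None of their 14 probes passed 2-fold over WT, with log2 ratios between -0.84 and 0.55. Over all probes 1.14% to 2.76% passed in a given direction over WT. *IGLL1*, a surrogate light chain gene, lay between 136612 and 140829 units by its brightest probe, A_24_P83102, but by A_23_P120812 it was at 81443, 63325, 57761 and 46232, lower than WT on the other 3 arrays. *CD79A*, a signaling subunit of the pre-B receptor, had the widest span, at 18833, 12612, 17443 and 27035 units, lowest in Arp5 KO cells. *RAG2*, of the recombinase, was also lower than WT on all of these, at 3160, 2244, 1980 and 2076 units, and *VPREB1*, another surrogate light chain gene, was lowest in Arp8 KO cells, at 37374, 33610, 24832 and 42063.

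*MYC* was bright, and it differed on 1 array. The probe A_23_P215956, which is spotted 10 times, had a mean signal of 67279 units in WT, 69410 in Arp5 KO, 71982 in Arp8 KO and 36255 on the array labelled as Arp8 overexpression. The probe A_24_P38363 had 251, 316, 284 and 122 units. Both probes therefore put the array labelled as Arp8 overexpression lowest, while both KO lines were at or a little above WT cells, except that quantile normalization put the brighter probe at -0.02 in Arp5 KO cells. Over WT, the log2 ratio on that array was -0.91 and -1.07 by the 2 probes, against 0.07 and 0.35 in Arp5 KO and 0.08 and 0.16 in Arp8 KO cells. The spots of the brighter probe did not overlap between that array and WT. The highest of the 9 used spots there was at 37992 units, and the lowest spot of WT cells was at 63402. Such spots are repeats within an array, so their gap describes the measurement and does not cover differences between cultures. Arp8 KO cells over the array labelled as Arp8 overexpression gave 0.99 and 1.23. The 2 probes lie on either side of the 2-fold line, so the fall was close to 2-fold and only A_24_P38363 was counted.

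**Figure D1:**
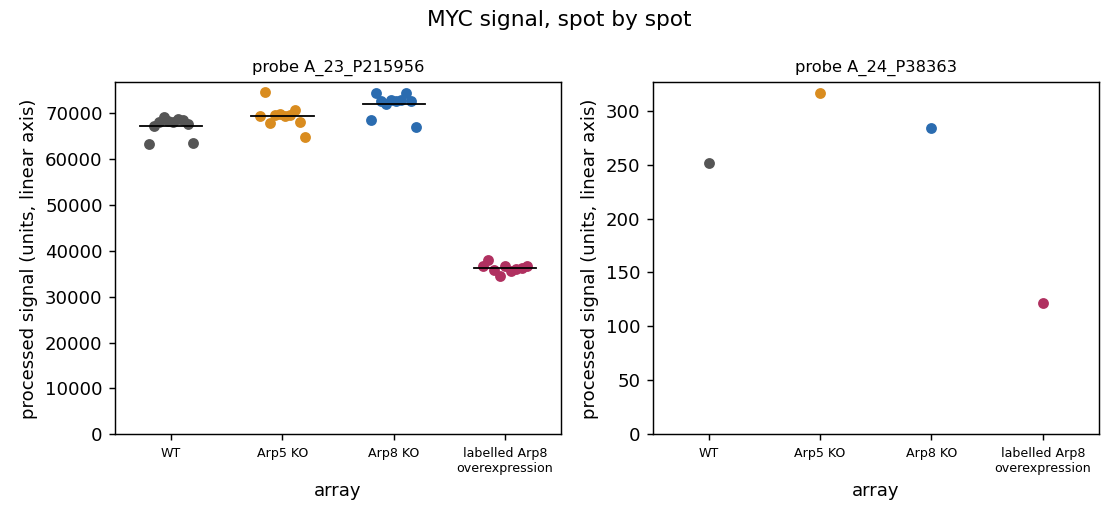
Processed signal of the *MYC* probes (linear axes, units) on each of the 4 arrays, with 1 point per spot and a black line at the mean of repeated spots. The array labelled as Arp8 overexpression lies at 36255 units by the probe A_23_P215956 and at 122 units by A_24_P38363, below the other 3 arrays in both panels.

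The 3 genes with the pattern most like that of the *MYC* probe A_24_P38363 were *H3C7*, *H3C10* and *EFNA1*, at distances of 0.12, 0.15 and 0.17 between centred log2 levels over 4 arrays, among 19272 named probes well above background on all of them. *H3C7* and *H3C10* encode histone H3, and *EFNA1* encodes the ligand ephrin-A1. On the array labelled as Arp8 overexpression their log2 ratios to WT were -1.05, -1.03 and -1.15. With 4 values per probe such likeness is a description only.

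Textbook target genes of *MYC* and its partners and antagonists showed no fall of that size as groups. Of 42 probes of the MYC target list with a ratio, covering ribosome biogenesis and biosynthesis, 1 was lower beyond 2-fold on the array labelled as Arp8 overexpression and none was higher, where 2.76% of all probes were lower and 1.48% higher, and the list's median was -0.11 against 0.01 over all probes, with 30 of the 42 probes below 0. The same list had a median of -0.10 in Arp8 KO cells, where *MYC* was not low and 25 of 42 probes were below 0, and 0.01 in Arp5 KO cells. The probe counted was that of *TERT*, the catalytic subunit of telomerase, with 6648, 4455, 2521 and 2826 units in WT, Arp5 KO, Arp8 KO and the array labelled as Arp8 overexpression. *TERT* was thus lower on both arrays of Arp8-manipulated cells and did not follow the *MYC* pattern. Of 25 probes of partners and antagonists none was beyond 2-fold on the array labelled as Arp8 overexpression, and the median was 0.06. Among these genes *MXD4*, which encodes a repressor that competes with MYC for MAX, stood at 893, 880, 1809 and 1729 units by its brightest probe. By that probe it lay just past the 2-fold line in Arp8 KO cells, where its other 2 probes gave log2 ratios of 0.72 and 0.73. For *MXD3*, of the same family, the probes disagreed, with -1.11 for A_24_P417706 and -0.06 for A_23_P124559 in Arp8 KO cells.

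Among the D-type cyclins, *CCND2* was the member with the widest differences, on a dim signal. By the probe A_24_P278747 it had 22.1 units in WT, 50.4 in Arp5 KO, 155 in Arp8 KO and 79.0 on the array labelled as Arp8 overexpression. The probe A_24_P270235 had 12.4, 14.3, 46.3 and 26.6 units. The probe A_23_P139881 had 9.32 units in WT, 43.7 in Arp8 KO and 29.9 on the array labelled as Arp8 overexpression, and its only spot in Arp5 KO cells, at 301 units and brighter than on any other array, was marked an outlier and left out. The 2 probes with a value on every array were highest in Arp8 KO cells, next on the array labelled as Arp8 overexpression and lowest in WT. The probe A_23_P139881 had the same order over its 3 remaining arrays, and with the outlier kept it would be highest in Arp5 KO cells. Over WT, the log2 ratios in Arp8 KO cells were 2.79, 1.89 and 2.21 in the order of the probes above, and 1.81, 1.08 and 1.66 on the array labelled as Arp8 overexpression. The software's errors of these 6 ratios were between 0.23 and 0.33. In Arp5 KO cells the probes disagreed, with 1.21 for A_24_P278747 and 0.23 for A_24_P270235. With normexp and an offset of 50 units, which is larger than most of these signals, the ratios in Arp8 KO cells shrank to 1.42, 0.48 and 0.43, those on the array labelled as Arp8 overexpression to 0.76, 0.19 and 0.30, and that of A_24_P278747 in Arp5 KO cells to 0.49. All kept their direction, and only the first stayed beyond 2-fold.

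*CCND2* is active in many blood cells, so the markers of other blood lineages are given beside it. Of 5 myeloid marker genes, 3 were well above background in WT, Arp5 KO and Arp8 KO and 4 on the array labelled as Arp8 overexpression, with summed signals of 197, 191, 289 and 298 units. The brightest probe was that of *CD14* in WT and Arp5 KO cells and that of *LYZ*, the lysozyme gene, on the 2 arrays of Arp8-manipulated cells, and signals of different probes do not rank genes by abundance. *CD14* had 119 units in WT, 124 in Arp5 KO, 123 in Arp8 KO and 110 on the array labelled as Arp8 overexpression, so it did not rise there. *LYZ* had 55.4, 46.3, 143 and 140 units. *CSF1R*, a growth factor receptor gene, had 11.1 units in WT, nearly the same in Arp5 KO, 16.2 in Arp8 KO and 25.3 on the array labelled as Arp8 overexpression, and *S100A8* was well above background only on that last array, at 16.1 units. Beyond 2-fold over WT, 1 of 3 myeloid probes was higher in Arp8 KO cells (*LYZ*, 1.35) and 2 of the same 3 on the array labelled as Arp8 overexpression (*CSF1R*, 1.17; *LYZ*, 1.31), with none in Arp5 KO cells. Over all probes 1.48% were higher in each of the first 2 comparisons and 1.17% in Arp5 KO cells. *S100A8* gained a ratio only through the array where it was high, over a WT signal raised to the lowest one well above background, and is not counted with them. *MPO*, the defining granule enzyme, was not well above background on any array. Of 5 T cell genes, *CD3D*, *CD3G* and *TRAT1* were not well above background on any array, and the sum stayed between 98.1 and 103 units with *CD3E* brightest. Epithelial genes summed to 1338, 1454, 1319 and 1093 units, with *KRT8* brightest and *EPCAM* and *CDH1* not well above background. Their median log2 ratio to WT was 0.04 in Arp5 KO, -0.28 in Arp8 KO and -0.65 on the array labelled as Arp8 overexpression. On each of the last 2 arrays 4 of 5 probes were below 0, those of *KRT18* among them, and none passed 2-fold. *LYZ* was thus higher beyond 2-fold over WT on the 2 arrays of Arp8-manipulated cells. *CSF1R* passed 2-fold only on the array labelled as Arp8 overexpression, where it was highest, and had a log2 ratio of 0.53 in Arp8 KO cells. *CD14* passed on neither array. The part of the myeloid genes in the levels of *CCND2* was not tested. In bulk RNA a change in the number of cells and a change per cell cannot be told apart.

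The genes whose pattern was most like that of *CCND2* were *GIMAP1*, *PCNX2* and *MYO1A* for the probe A_24_P270235, at distances of 0.13, 0.13 and 0.19, and *KIAA1671*, *CD33* and *OPLAH* for A_24_P278747, at 0.46, 0.50 and 0.56. *GIMAP1* encodes a GTPase of lymphocytes and *CD33* a surface lectin known from myeloid cells. *CD33* had 587 units in WT, 854 in Arp5 KO, 2792 in Arp8 KO and 1703 on the array labelled as Arp8 overexpression, the same order of arrays as the 2 *CCND2* probes with a value on every array. Since *CD33* was picked for its likeness over these arrays, the shared order follows from the choice.

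*CCND3*, which encodes the D-type cyclin known to be needed for the expansion of pre-B cells, was bright and moved the other way by a smaller amount. The probe A_23_P361773 had 46018 units in WT, 44890 in Arp5 KO, 33628 in Arp8 KO and 33660 on the array labelled as Arp8 overexpression, and A_23_P214464 had 8549, 8911, 5919 and 6186. Both probes were lower on the 2 arrays of Arp8-manipulated cells and near WT in Arp5 KO cells. Their log2 ratios to WT were -0.47 and -0.55 in Arp8 KO and -0.47 and -0.49 on the array labelled as Arp8 overexpression, beyond the software's error of 0.20 and within 2-fold. Sizes like these were not rare, since 10% of all probes had a size over 0.65 in Arp8 KO cells and over 0.68 on the array labelled as Arp8 overexpression. *CCND1*, the cyclin of many epithelial and mantle cell tumors, was not well above background on any array by 2 of its 3 probes. The probe A_24_P193011 was dim, with 13.2, 8.87 and 9.88 units in WT, Arp5 KO and the array labelled as Arp8 overexpression, and 9.51 units in Arp8 KO cells, where it was not well above background. The probes of *CCND1* thus disagreed near the background, and no change beyond 2-fold was seen.

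**Figure D2:**
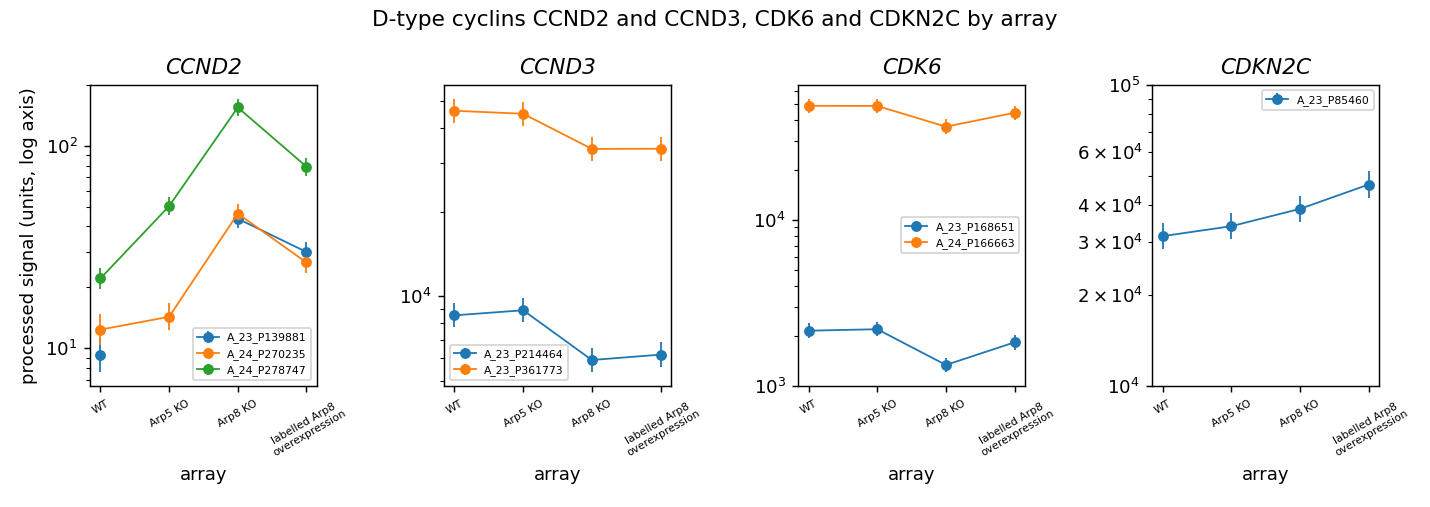
Processed signal (units, log axes) of each probe of *CCND2*, *CCND3*, *CDK6* and *CDKN2C* on the 4 arrays, with bars for the software's error of 1 array and 1 line per probe, broken where the spot was left out. *CCND2* is highest in Arp8 KO cells by the 2 probes with a value on every array (155 and 46.3 units), and so is A_23_P139881 (43.7 units) once its Arp5 KO spot of 301 units, an outlier, is left out, whereas *CCND3* and *CDK6* are lower there than in WT cells.

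The kinases that D-type cyclins activate stayed within 2-fold. *CDK6* had 2144 units in WT, 2188 in Arp5 KO, 1332 in Arp8 KO and 1824 on the array labelled as Arp8 overexpression by the probe A_23_P168651, and 48755, 48655, 36477 and 44291 by A_24_P166663. By both probes it was lowest in Arp8 KO cells, with log2 ratios to WT of -0.70 and -0.44, and between these and WT on the array labelled as Arp8 overexpression, with -0.26 and -0.16. *CDK4* had 30165, 24361, 26099 and 26123 units by its 1 probe, a little lower than WT on the other 3 arrays, with ratios of -0.29, -0.23 and -0.23, which are hardly larger than the software's error of 0.20.

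*CDK4* is a known target gene of MYC, and its promoter is shown because it holds the MYC recognition letters several times. Promoters of 7 of the 10 genes, other than *MYC*, *CCND1* and *CCND2*, were matched in 13 entries from RefSeq (GRCh38.p14), and the 250 bases before each start were searched for the E-box CACGTG, which reads the same on both strands. Among 35116 promoters 6.34% hold it, and 0.0797% hold it 3 or more times. The *CDK4* window holds it 3 times, with first bases at -216, -196 and -101 from the start, and 2 of the 3 *CDKN2C* entries hold it once, at -220 and -69. No match was found in these windows of *CCND3*, *CDK6*, *CDKN1B*, *CDKN2A* or *RB1*. The *CDK4* window is at chr12:57752311-57752560 on the minus strand, and the *CDKN2C* stretches of 20 bases to either side of the match are at chr1:50960505-50960550 and chr1:50970156-50970201 on the plus strand. Each is written from 5′ to 3′ with the E-box in capitals.
CDK4: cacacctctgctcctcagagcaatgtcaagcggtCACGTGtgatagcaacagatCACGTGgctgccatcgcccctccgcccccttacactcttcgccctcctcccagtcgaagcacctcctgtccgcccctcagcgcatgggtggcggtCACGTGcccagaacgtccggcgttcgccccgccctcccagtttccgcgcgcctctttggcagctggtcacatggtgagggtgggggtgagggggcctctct
CDKN2C at -220: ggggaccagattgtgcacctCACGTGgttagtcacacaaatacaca
CDKN2C at -69: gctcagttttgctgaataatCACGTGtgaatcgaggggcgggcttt
On the array where *MYC* was lowest, *CDK4* had a ratio of -0.23, the same as in Arp8 KO cells, and *CDKN2C* was at its highest. Whether the level of *MYC* bears on those of *CDK4* or *CDKN2C* was not tested. A match of letters describes the window and says nothing of binding in these cells.

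Among the kinase inhibitors, *CDKN2C*, which encodes p18, had the highest ratios to WT, all within 2-fold. Its probe had 31438 units in WT, 33926 in Arp5 KO, 38738 in Arp8 KO and 46666 on the array labelled as Arp8 overexpression, with log2 ratios to WT of 0.13, 0.28 and 0.55. *CDKN1B*, which encodes p27, differed little, with 3675, 3475, 3856 and 4255 units by the repeated probe A_24_P81841 and 816, 854, 751 and 807 by A_23_P204696. The order of the arrays differed between its 2 probes, and neither passed a size of 0.19 in any comparison with WT.

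The 2 probes of *CDKN2A*, the gene of the INK4 inhibitor p16 and of ARF, disagreed. A_23_P43484 was not well above background on any array, with means of 2.15, 1.91, 2.24 and 1.93 units, while A_23_P43490 had 685 units in WT, 691 in Arp5 KO, 471 in Arp8 KO and 552 on the array labelled as Arp8 overexpression. The signal of the brighter probe was lower than in WT in Arp8 KO cells, at -0.56, and on the array labelled as Arp8 overexpression, at -0.33. Both probes carry the same accession. Which transcripts each one reads, and whether the signal of the brighter probe comes from *CDKN2A*, was not tested. The neighbours of *CDKN2A* in the order of protein-coding genes were near background. All 3 probes of *MTAP*, the next gene on one side, and those of *DMRTA1* and *ELAVL2*, 2 and 3 places away on the other, were not well above background on any array. *CDKN2B*, the next gene on that other side, which encodes the INK4 inhibitor p15, was well above background only on the array labelled as Arp8 overexpression, at 10.3 units by 1 of 2 probes, and *KLHL9*, 8 places away, only in Arp5 KO cells, at 12.1 units.

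Outside the 10 genes, the inhibitor gene *CDKN1A*, which encodes p21, differed more than any inhibitor among them. It had 12259 units in WT, 9791 in Arp5 KO, 28557 in Arp8 KO and 14446 on the array labelled as Arp8 overexpression by the probe A_23_P59210, and 1102, 750, 2450 and 1234 by A_24_P89457. Both probes were high in Arp8 KO cells alone, with log2 ratios to WT of 1.20 and 1.14. They were the only probes beyond 2-fold over WT in the list of other CDK inhibitors, in which 5 probes had a ratio in each KO line and 6 on the array labelled as Arp8 overexpression. Over all probes 1.48% were higher in Arp8 KO cells. The list's medians over WT were 0.12 in Arp5 KO, 0.76 in Arp8 KO and 0.29 on the array labelled as Arp8 overexpression. Over all probes the medians were 0.04, 0.01 and 0.01.

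*RB1*, whose protein holds E2F factors in check, differed as little as *CDKN1B*. It had 28155 units in WT, 31215 in Arp5 KO, 28729 in Arp8 KO and 32765 on the array labelled as Arp8 overexpression by the repeated probe A_23_P204850, and 678, 707, 595 and 694 by A_24_P102636. Its log2 ratios in the 4 comparisons lay between -0.21 and 0.20, close to the software's error of 0.20.

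**Figure D3:**
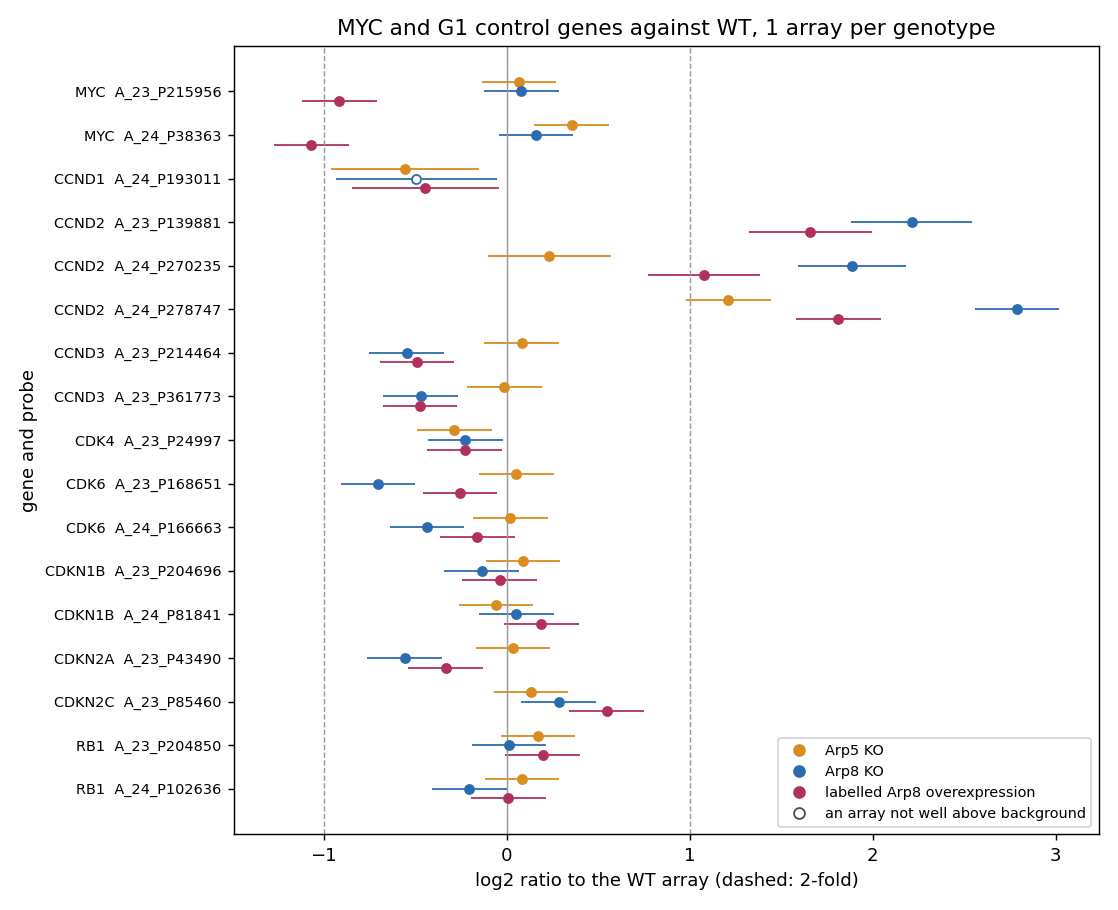
Log2 ratios to the WT array for the 17 probes of the 10 genes that gave one, by array, with bars for the software's error of a ratio and dashed lines at 2-fold; the open point marks an array not well above background. *CCND2* lies right of the 2-fold line on both arrays of Arp8-manipulated cells by all 3 probes, *MYC* lies near the left line only on the array labelled as Arp8 overexpression, and the other genes lie between the lines.

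Counted together, 1 of 16 member probes with a ratio was higher beyond 2-fold in Arp5 KO over WT and none was lower, where 1.17% of all probes were higher and 1.14% lower. In Arp8 KO over WT 3 of 17 were higher and none lower, against 1.48% and 2.07% of all probes. On the array labelled as Arp8 overexpression 3 of 17 were higher and 1 was lower, against 1.48% and 2.76%. In Arp8 KO over that array 1 of 17 was higher and none lower, against 0.938% and 0.925%. These calls came from *CCND2* and *MYC* alone, and since the 3 *CCND2* probes read the same gene they are not separate results. Over the 4 arrays, 3 of 15 member probes spanned more than 2-fold, against 8.12% of all probes, and they were those of *MYC* and *CCND2* already given. Each of the 4 comparisons shares an array with at least 1 other.

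For lists of other cell-cycle genes, counts beyond 2-fold are set beside the shares over all probes. Those shares were 1.17% higher and 1.14% lower in Arp5 KO over WT, and 1.48% and 2.07% in Arp8 KO over WT. They were 1.48% and 2.76% on the array labelled as Arp8 overexpression over WT, and 0.938% and 0.925% in Arp8 KO over that array. Counts of 0 in lists this short are near these shares and do not set the lists apart. Of 19 probes of other pocket proteins, E2F and DP factors none passed 2-fold in any comparison, and the medians over WT were -0.05 in Arp5 KO, 0.01 in Arp8 KO and 0.00 on the array labelled as Arp8 overexpression, with *E2F6* spanning most, at 0.39. Among 13 probes of later G1/S cyclins, kinases and activators none passed either, with medians of 0.09, -0.06 and 0.02, and *CCNE1*, which encodes cyclin E1, spanned most, with 10421, 9717, 13896 and 16139 units. Of 14 probes of G2/M genes none passed, with *FOXM1* spanning most, at 0.52, and medians of -0.07, -0.13 and 0.03. For 21 probes of E2F target genes of S phase the medians were 0.02, -0.12 and 0.11, beside 0.04, 0.01 and 0.01 over all probes. Of these 21 probes 10 were below 0 in Arp5 KO, 17 in Arp8 KO and 6 on the array labelled as Arp8 overexpression, each over WT, and of the 14 G2/M probes 10, 13 and 5. In Arp8 KO over the array labelled as Arp8 overexpression all 21 E2F target probes were below 0, with a median of -0.27, and all 14 G2/M probes, with a median of -0.18, beside 0.01 over all probes. The G2/M probes nearest 0 were those of *PLK1*, at -0.0045, and *CENPF*, at -0.026. With dim probes left out of the percentile the median over all probes was 0.04, so the signs of these G2/M probes depend on the scaling. Within the E2F target list *MCM2*, a subunit of the replicative helicase, stood apart with 51402 units in WT, 13309 in Arp5 KO, 20075 in Arp8 KO and 48592 on the array labelled as Arp8 overexpression. *MCM2* was low in both KO lines and near WT on the array labelled as Arp8 overexpression, by 1 probe. That probe was the only 1 of the 21 beyond 2-fold. It was lower in each KO line over WT and in Arp8 KO over the array labelled as Arp8 overexpression. *MCM4*, of the same complex, had 7071, 4139, 7627 and 9626 units and was lowest in Arp5 KO cells.

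Factors known to control *MYC*, D-type cyclins or p27 in pre-B cells were examined last. *BCL6*, which encodes a repressor of the pre-B and germinal center stages and represses *CCND2* in germinal center cells, had 4822 units in WT, 1794 in Arp5 KO, 1037 in Arp8 KO and 2246 on the array labelled as Arp8 overexpression. It was lower than WT on the other 3 arrays, with ratios of -1.40, -2.23 and -1.13. *BCL6* was lowest in Arp8 KO cells, where *CCND2* was highest by the 2 probes with a value on every array. The inverse order did not extend to the remaining arrays, since *BCL6* was lower in Arp5 KO cells than on the array labelled as Arp8 overexpression. The same *CCND2* probes were lower there too, at 1.21 and 0.23 over WT in Arp5 KO cells against 1.81 and 1.08. *IKZF3*, which encodes the factor Aiolos, was dim, at 50.2, 53.7, 16.0 and 25.6 units, and lower on the 2 arrays of Arp8-manipulated cells. *IRF8* had 80.8, 33.6, 44.3 and 82.9 units and was lower in both KO lines. Of the 13 probes of the list 2 were lower beyond 2-fold in each KO line and 1 on the array labelled as Arp8 overexpression, with none higher. Over all probes 1.14% were lower in Arp5 KO, 2.07% in Arp8 KO and 2.76% on the array labelled as Arp8 overexpression. Whether these levels bear on those of *MYC* or *CCND2* was not tested.

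**Figure D4:**
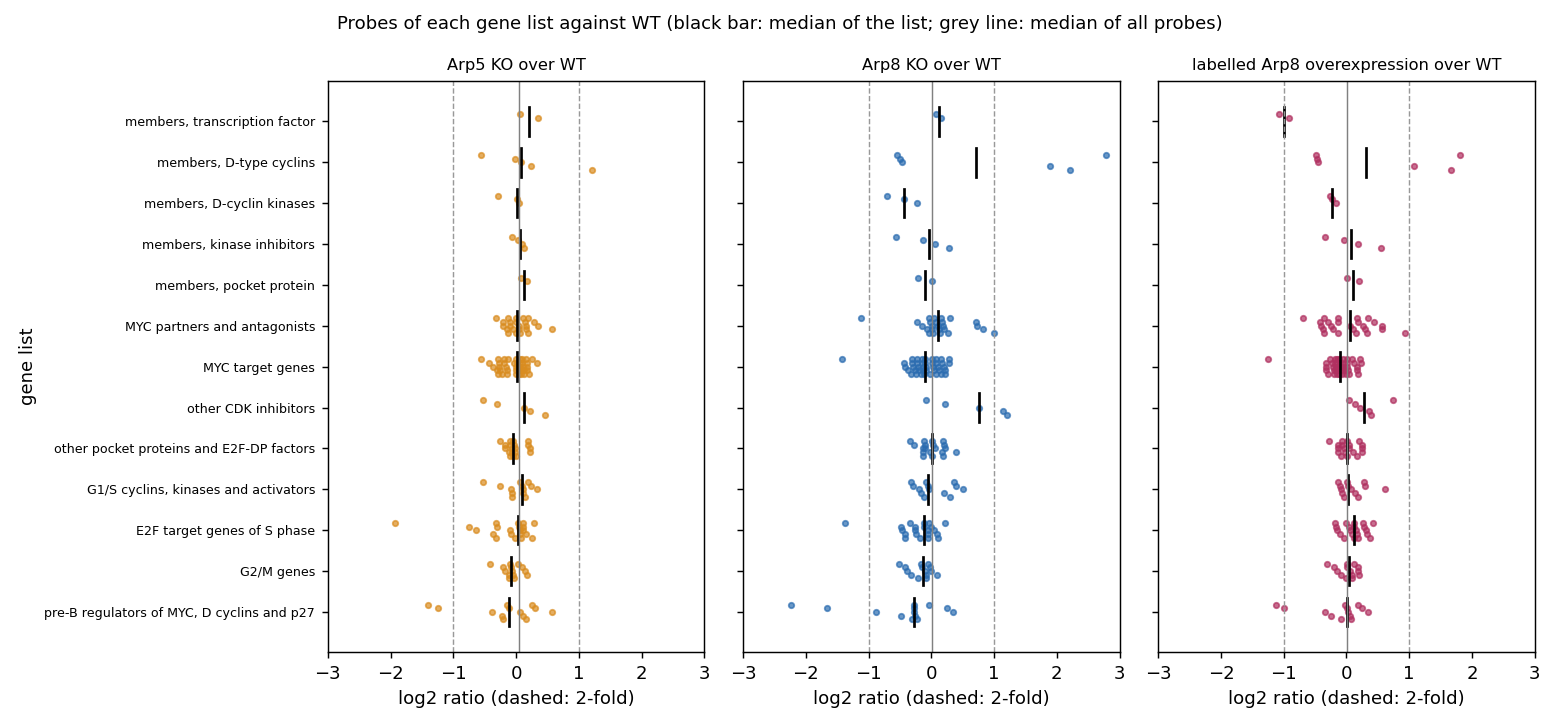
Log2 ratios to WT of every probe with a ratio in each gene list, for Arp5 KO, Arp8 KO and the array labelled as Arp8 overexpression, with black bars at each list's median, grey lines at the median of all probes and dashed lines at 2-fold. The *MYC* probes lie near -1 only in the right panel, while the median of the MYC target list is -0.11 there.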

How the data were processed

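The authors deposited the Feature Extraction 10.5.1.1 output of 4 single-color Agilent arrays, 1 per genotype, all on one slide and from one scan; the processed signals in it are linear intensities that the software had corrected for background, without scaling across arrays. The authors' table also holds intensities, with column medians of 127 for WT, 128 for Arp5 KO, 122 for Arp8 KO and 119 for the array labelled as Arp8 overexpression. It equals the processed signal times 1 factor per array within 0.1% for values of 100 or more, with a factor between 0.807 and 0.847; the scale is thus linear, no centring or ratio is present, and how the factor was set stays unknown. Each array has 43376 spots other than controls, for 41000 probes, of which 26222 (64.0%) were named through their accession and the RefSeq table of GRCh38.p14; the files name another build, so the table served for names, gene order and promoters. Between 30394 and 31420 spots per array were well above background.

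Log2 signals were scaled by the 75th percentile, outlier spots were left out, and spots of a probe were averaged. Where the dimmer array was not well above background it was raised to the array's lowest signal that was, 6.90 to 9.44 units. Genes of the marker lists, the targeted genes and the neighbours of *CDKN2A* were given outside the following rule. From each other list, a gene outside the 10 was named when a probe well above background on all arrays spanned over 1 on the log2 scale. At most 6 were named per list, and where none spanned that much, the 1 spanning most. Pattern likeness is the Euclidean distance of centred log2 levels. Members and lists were chosen with earlier results of these data known. Normexp was run on median signals, since no mean signal was used here, with limma 3.58.1 (R 4.3.3). Python 3.11.15 served for the rest, with numpy 2.4.6, pandas 2.3.3 and matplotlib 3.10.9. Alternatives were other scalings, background corrections, filters, thresholds, counting units and references.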

Additional observations from a re-analysis of the deposited data

How the results depend on the processing

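Of 94 recomputed values of ratios beyond 2-fold, 82 stayed beyond 2-fold in the same direction, 11 kept the direction within 2-fold, and 1 reversed. That was *CCND2* by A_24_P278747 in Arp5 KO cells, at -0.32 against the mean of the other 3 arrays, which include both high arrays. The settings for dim probes, with 9 of these values each, could not move them, since both arrays of each ratio were well above background. With normexp only 1 of 9 stayed beyond 2-fold. With normexp the probes beyond 2-fold were 0 in Arp5 KO over WT, 1 in Arp8 KO over WT, 0 on the array labelled as Arp8 overexpression over WT and 0 in Arp8 KO over that array. Counted as genes, by the mean ratio of a gene's probes, they were 0, 1 and 1 in the first 3 comparisons: *CCND2* fell within 2-fold in Arp5 KO cells, its 3 probes counted once in the others, and the mean of the *MYC* ratios was -0.99. With outlier spots kept there were 2 in Arp5 KO over WT, 2 in Arp8 KO over the array labelled as Arp8 overexpression and 5 spans beyond 2-fold. Quantile normalization gave 2 on the array labelled as Arp8 overexpression over WT and 2 in Arp8 KO over that array. In the latter comparison 3 were counted from the authors' table and 3 when dim probes were left out of the percentile. At 1.5-fold there were 4 there and 7 spans. Except where stated, the cause was not tested. Other counts were within 1.5 times the reported ones. Over the other scalings, corrections and filters the *MYC* ratio to WT on the array labelled as Arp8 overexpression lay between -0.99 and -0.86 for A_23_P215956 and between -1.11 and -0.79 for A_24_P38363.

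No paired analysis was possible because every genotype was hybridized once. Signals of *CCND2* and *CCND1* lie close to background, which limits their ratios.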
